A study of Homo sapiens with 3 samples.

Results

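The cytosolic ribosomal protein genes encode the proteins of the large (RPL) and small (RPS) subunit of the ribosome that translates nuclear mRNAs. To study where Strawberry Notch 1 (SBNO1) and TATA-box binding protein associated factor 4 (TAF4) lay at these genes, the peaks of chromatin immunoprecipitation sequencing (ChIP-seq) in HuCCT1 cells were assigned to all protein-coding genes of GENCODE release 44. HuCCT1 is an established human cell line from cholangiocarcinoma, a cancer of the bile ducts. The 3 libraries differed only in the antibody, which was directed against SBNO1, against TAF4 or was control immunoglobulin (IgG), and the cells were otherwise given no treatment in the labels. The methods describe immunoprecipitates that were pooled from at least 3 biological replicates per antibody. Each antibody therefore had 1 library, no value has a replicate error and no difference between libraries was tested. Genes were chosen by symbol (RPL or RPS followed by a digit, RPLP0, RPLP1, RPLP2 and RPSA, without the RPS6K kinases, RPS19BP1 and RPL7L1). This gave 89 of 19689 protein-coding genes, of which 77 were core ribosomal protein genes, 9 were paralogs of a core gene and 3 were read-through genes that join a ribosomal protein gene to its neighbour. A gene was counted as having a promoter peak if the edge of a peak lay within 1 kb of any of its protein-coding transcription start sites (TSS).

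Ribosomal proteins are made in equal amounts in growing cells, and their genes are among the most actively transcribed by RNA polymerase II. Their mRNAs carry a 5′ terminal oligopyrimidine (TOP) tract, a C at the first base followed by an unbroken run of C and T, through which mTOR signalling controls their translation. TAF4 is a subunit of TFIID, the general transcription factor that recognises core promoters and recruits RNA polymerase II, and SBNO1 is a nuclear protein with a helicase-like domain.

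To show what the peaks covered, the sequence around the annotated start of 8 core genes with both an SBNO1 and a TAF4 peak is given on the strand of the gene, 25 bases before and 20 bases from the TSS on (GRCh38 reference). They encode the acidic stalk proteins P1 and P2, the laminin receptor precursor RPSA, the mTOR pathway substrate RPS6, RPS14, RPS19, RPL39 and RPS27. Capitals mark the pyrimidine tract that starts with C at the TSS.
RPLP1 (chr15:69452793-69452837, plus strand): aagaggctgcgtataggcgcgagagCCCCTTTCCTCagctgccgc
RPLP2 (chr11:809942-809986, plus strand): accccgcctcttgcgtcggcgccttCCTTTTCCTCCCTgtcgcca
RPSA (chr3:39406695-39406739, plus strand): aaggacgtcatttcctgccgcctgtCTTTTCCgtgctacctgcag
RPS6 (chr9:19380217-19380261, minus strand): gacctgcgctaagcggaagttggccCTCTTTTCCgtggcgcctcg
RPS14 (chr5:150449720-150449764, minus strand): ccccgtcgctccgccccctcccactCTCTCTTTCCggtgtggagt
RPS19 (chr19:41860230-41860274, plus strand): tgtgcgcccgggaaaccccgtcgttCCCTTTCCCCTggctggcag
RPL39 (chrX:119791611-119791655, minus strand): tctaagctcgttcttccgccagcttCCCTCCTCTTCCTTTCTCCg
RPS27 (chr1:153990737-153990781, plus strand): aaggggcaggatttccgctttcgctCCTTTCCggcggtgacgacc
All 8 starts opened with such a tract, of 7 to 19 bases, and the tract of RPL39 was the longest of all core genes.

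The same window follows for 4 of the 5 core genes that had a TAF4 peak but no SBNO1 peak, since these were the exceptions within the core genes. All 4 opened with a tract.
RPL13 (chr16:89560657-89560701, plus strand): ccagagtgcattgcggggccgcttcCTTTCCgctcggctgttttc
RPS10 (chr6:34426050-34426094, minus strand): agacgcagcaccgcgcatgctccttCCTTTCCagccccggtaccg
RPS21 (chr20:62387078-62387122, plus strand): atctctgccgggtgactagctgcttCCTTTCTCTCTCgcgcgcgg
RPS27A (chr2:55232663-55232707, plus strand): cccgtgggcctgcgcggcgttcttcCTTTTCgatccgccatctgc
Next, 2 core genes with both peaks and no tract at the annotated TSS are shown. Both RPL4 and RPS4X, the X-linked RPS4 gene, started with A.
RPL4 (chr15:66504836-66504880, minus strand): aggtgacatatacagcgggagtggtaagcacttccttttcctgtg
RPS4X (chrX:72277229-72277273, minus strand): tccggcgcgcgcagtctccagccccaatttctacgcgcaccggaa
Finally, 4 paralogs are shown, of which RPL10L and RPL39L had no peak of either antibody while RPL26L1 and RPL36AL had both. RPL36AL started with C but its tract was only 3 bases long, and the other 3 started with G or A.
RPL10L (chr14:46651762-46651806, minus strand): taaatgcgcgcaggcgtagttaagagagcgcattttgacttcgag
RPL39L (chr3:187139477-187139521, minus strand): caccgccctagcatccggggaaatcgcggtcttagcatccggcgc
RPL26L1 (chr5:172959399-172959443, plus strand): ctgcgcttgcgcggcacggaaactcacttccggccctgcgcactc
RPL36AL (chr14:49620607-49620651, minus strand): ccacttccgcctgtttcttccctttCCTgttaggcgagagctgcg

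Promoter peaks were found at nearly all core genes. A TAF4 peak lay within 1 kb of the TSS of 83 of 89 genes of the family (93.3%, 95% interval 85.9 to 97.5), against 31.9% of all protein-coding genes. For SBNO1 it was 77 of 89 (86.5%, 77.6 to 92.8), against 25.7% of all genes. The IgG control list had a peak at 3 of 89 (3.37%, 0.701 to 9.54), against 1.41% of all genes. Intervals are exact Clopper-Pearson intervals and cover counting error only. All 77 genes with an SBNO1 peak also had a TAF4 peak, a combination found at 22.6% of all genes. None of the family had SBNO1 alone, found at 3.08% of all genes, 6 had TAF4 alone, against 9.29%, and 6 had neither, against 65.0%.

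Among the 77 core genes, every gene had a TAF4 peak (lower bound 95.3%) and 72 had an SBNO1 peak (93.5%, 85.5 to 97.9). All 46 large subunit genes had TAF4 and 45 had SBNO1 (97.8%, 88.5 to 99.9). All 31 small subunit genes had TAF4 and 27 had SBNO1 (87.1%, 70.2 to 96.4), so the intervals of the subunits overlapped for SBNO1. The 3 genes of the P stalk, the flexible arm of the large subunit that contacts translation factors, had both peaks. Of 11 family genes that are mutated in Diamond-Blackfan anaemia, a congenital failure of red cell production, all 11 had TAF4 and 10 had SBNO1, with RPS10 as the exception.

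**Figure D1:**
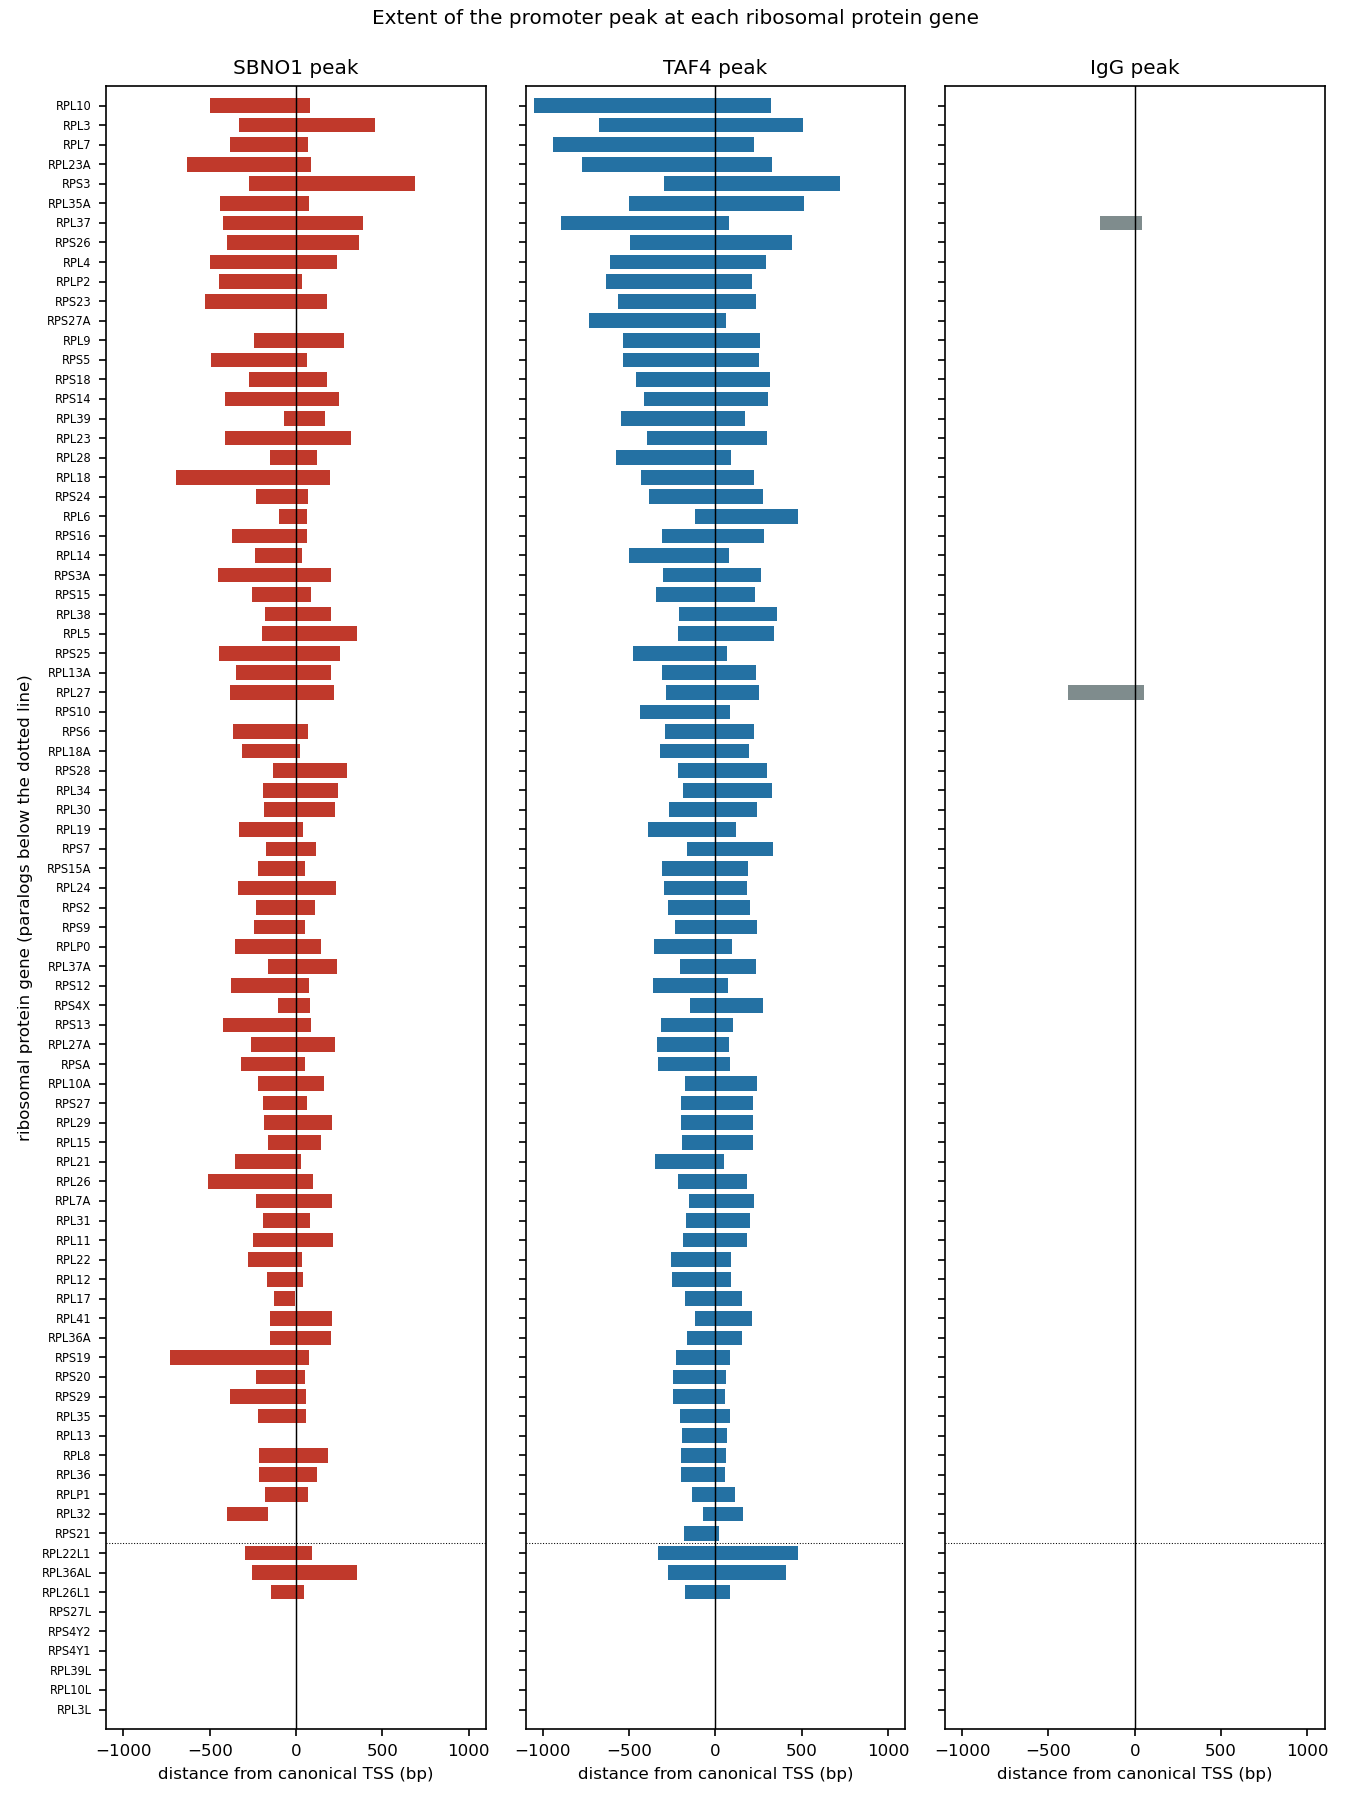
Extent of the SBNO1 (left), TAF4 (middle) and IgG (right) promoter peak at each of 74 core genes and, below the dotted line, the 9 paralogs, as distance in bp from the canonical TSS along the gene (negative is upstream); genes are ordered by the width of the TAF4 peak and each bar is 1 peak. TAF4 bars are present in all 74 core rows, SBNO1 bars in 70 and IgG bars in 2, while 6 of the 9 paralog rows are empty.

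The 5 core genes without an SBNO1 promoter peak included RPL13, RPS10, RPS21 and RPS27A. RPS27A, which is made as a fusion with ubiquitin, had the widest TAF4 peak of the 5, at chr2:55231956-55232749 (794 bp, score 952). RPS10 had a TAF4 peak of 522 bp at chr6:34425984-34426505 (score 908). RPL13 had a TAF4 peak of 263 bp at chr16:89560488-89560750 and RPS21 one of 204 bp at chr20:62386922-62387125, both at the highest score of 1000. The score is the authors' value for each peak, a whole number that ends at 1000, and ranks peaks within a list only. These 5 genes thus included both a TAF4 peak that was the narrowest of the core genes (RPS21) and some that were wider than the core median. The median TAF4 width was 522 bp in the 5 genes and 511.5 bp in the 72 genes with SBNO1. The TAF4 score was at 1000 in 2 of 5 (median 952) and in 63 of 72 (median 1000). Seen from the canonical TSS, the centre of the TAF4 peak lay at a median of -175 bp in the 5 genes and -56 bp in the 72.

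For RPS21, the nearest SBNO1 peak was 5650 bp from the canonical TSS. This distance was 20549 bp for RPL13, 181200 bp for RPS27A and 181296 bp for RPS10, so no SBNO1 peak lay just outside the 1 kb limit at these 4 genes. RPL13 lies on chromosome 16, where SBNO1 peaks were scarce over all genes (8.19% of 843 genes, TAF4 18.9%). The other 2 core genes of chromosome 16, RPS2 and RPS15A, had peaks of both antibodies. RPL17 on chromosome 18, where 6.87% of genes had an SBNO1 peak, and all 4 core genes of the X chromosome (10.9%) also had both. On chromosome 19, all 12 core genes had both, against 22.4% of all genes of that chromosome for SBNO1. The core genes were spread over 21 chromosomes, and whether the chromosome had a part in the missing SBNO1 peaks was not tested.

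The paralogs divided into those with both peaks and those with none. RPL22L1 had an SBNO1 peak of 388 bp and a TAF4 peak of 817 bp, both with score 1000, and RPL22, its parent, had peaks of 316 and 347 bp. RPL26L1 had 189 and 260 bp, against 606 and 402 bp at RPL26. RPL36AL had 608 and 682 bp, against 354 and 317 bp at RPL36A. Both RPL36AL peaks also covered a TSS of MGAT2, its head-to-head neighbour, so they cannot be assigned to one of the pair. Thus, SBNO1 and TAF4 peaks at RPL22L1 and RPL36AL were wider than those of the parent, and at RPL26L1 they were narrower.

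In contrast, RPL3L, the muscle paralog of RPL3, RPL10L and RPL39L, the testis paralogs of RPL10 and RPL39, RPS27L, a p53 target, and the Y-linked RPS4Y1 and RPS4Y2 had no peak of any antibody within 1 kb. Their parents had both. RPL3 had an SBNO1 peak of 791 bp and a TAF4 peak of 1183 bp, RPL10 had 579 and 1374 bp, RPL39 had 241 and 718 bp, RPS27 had 258 and 415 bp, and RPS4X had 189 and 424 bp. The nearest SBNO1 peak to a paralog without one lay 10025 bp from the TSS of RPL3L. It was the promoter peak of RPS2, as was the nearest TAF4 peak at 9938 bp. The SBNO1 distance was 47204 bp for RPL39L, 49063 bp for RPS27L, 94218 bp for RPS4Y1, 1515893 bp for RPL10L and 5005769 bp for RPS4Y2. Peaks were scarce over all 63 genes of the Y chromosome (SBNO1 1.59%, TAF4 3.17%), so their absence at RPS4Y1 and RPS4Y2 does not set these genes apart. Absence of a peak means only that none passed the authors' threshold, and expression of these genes was not measured in these libraries.

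The 3 read-through genes start at or close to the TSS of the ribosomal protein gene they extend, so their peaks were those of the parent and added no independent observation. RPL17-C18orf32 and RPL36A-HNRNPH2 were counted with both peaks and RPS10-NUDT3 with TAF4 alone, as were RPL17, RPL36A and RPS10.

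To compare the peaks themselves, 1 main peak per gene and antibody was measured. The SBNO1 peak of the core genes had a median width of 435 bp (125 to 967), against 423 bp in the 4980 genes with an SBNO1 peak outside the family. The TAF4 peak had a median of 513 bp (204 to 1374, middle 50% of genes 405 to 672), against 422 bp (312 to 579) in 6197 other genes. Score 1000 was reached by 41 of 72 SBNO1 peaks (56.9%, 44.7 to 68.6), against 32.4% of the other genes. For TAF4 it was 65 of 77 (84.4%, 74.4 to 91.7), against 51.6%. Widths of SBNO1 peaks at core genes therefore lay close to those elsewhere, whereas the share at the highest score lay above that of other genes for both antibodies.

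Among SBNO1 peaks at score 1000, the widest was at RPL18 (chr19:48618983-48619873, 891 bp). RPL37 (chr5:40834832-40835644, 813 bp), RPS19 (chr19:41859525-41860331, 807 bp) and RPL23A (chr17:28719356-28720073, 718 bp) followed. RPS3, a protein of the mRNA entry channel, had the widest SBNO1 peak of all (967 bp, chr11:75399244-75400210) but a score of only 641. The lowest scores were those of RPS12 (523, 451 bp) and RPLP2 (540, 485 bp), and 12 core genes had an SBNO1 score below 700. At RPS12, the TAF4 peak was at 1000 (437 bp), and at RPLP2 it was at 903 (845 bp). The narrowest SBNO1 peaks, at RPL17 (125 bp), RPL6 (168 bp) and RPS4X (189 bp), all had score 1000, so a high score did not require a wide peak.

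TAF4 peaks were widest at RPL10 (1374 bp, chrX:154397327-154398700), RPL3 (1183 bp, chr22:39319117-39320299), RPL7 (1164 bp), RPL23A (1100 bp, chr17:28719213-28720312) and RPS3 (1025 bp, chr11:75399218-75400242). All had score 1000 except RPL3, which had the lowest TAF4 score of the core genes (872). RPL21 had 890. By score and then width, RPL35A (1017 bp, chr3:197949687-197950703) completed the leading TAF4 peaks.

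The values of 10 genes chosen by symbol illustrate this. At RPLP0, the stalk base, the SBNO1 peak had 499 bp and score 888 and the TAF4 peak 456 bp and score 1000. RPLP1 had 254 and 252 bp and RPSA had 373 and 417 bp, all at 1000. RPL5 (552 and 560 bp, scores 940 and 1000) and RPL11 (464 and 372 bp, both 1000) encode the proteins that, with 5S rRNA, bind MDM2 under nucleolar stress. RPL13A, a protein also known from translational silencing in the interferon response, had 552 and 542 bp with scores 736 and 1000. RPS6 had 435 and 520 bp and RPS14, the gene of the 5q deletion syndrome, 657 and 720 bp, all at 1000. RPS19, the most often mutated gene in Diamond-Blackfan anaemia, was the only one of the 10 with an SBNO1 peak more than 1.5 times as wide as its TAF4 peak (807 and 316 bp). In the other 9 genes, the SBNO1 centre lay upstream of the canonical TSS in all but RPL5, where both centres lay downstream (78 and 62 bp).

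Both antibodies gave peaks that sat on the start site. The SBNO1 peak covered the canonical TSS in 70 of 72 core genes (97.2%, 90.3 to 99.7), against 73.2% of other genes with a peak. The exceptions were RPL17, where the peak edge lay 5 bp from the TSS, and RPL32, where it lay 165 bp upstream. The TAF4 peak covered it in all 77 (lower bound 95.3%), against 82.5%. The other genes include some whose peak lay near a TSS far from the canonical one. Mitochondrial ribosomal protein genes with a peak had 94.3% for SBNO1 (84.3 to 98.8) and 98.2% for TAF4 (90.6 to 100). Proteasome subunit genes had 96.2% (80.4 to 99.9) and 89.7% (72.6 to 97.8). Coverage of the TSS was therefore not particular to the cytosolic genes. The centre of the SBNO1 peak lay at a median of -76 bp (-327 to 209) and that of the TAF4 peak at -60 bp (-409 to 212), against -116 and -100 bp in other genes. It was upstream of the TSS in 59 of 72 and 58 of 77 core genes, and within 100 bp of it in 44 and 50. RPS3 lay furthest downstream for both (209 and 212 bp), and furthest upstream were RPS19 for SBNO1 and RPL37 for TAF4.

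The median SBNO1 peak reached from 274 bp upstream to 121.5 bp downstream of the TSS, against 325 and 76 bp in other genes. The median TAF4 peak reached from 306 bp upstream to 213 bp downstream, against 314 and 88 bp. Exon 1, which had a median length of 40 bp, was covered by the TAF4 peak in 70 of 77 genes and by the SBNO1 peak in 58 of 72. Exon 2 was reached by 8 TAF4 and 3 SBNO1 peaks.

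**Figure D2:**
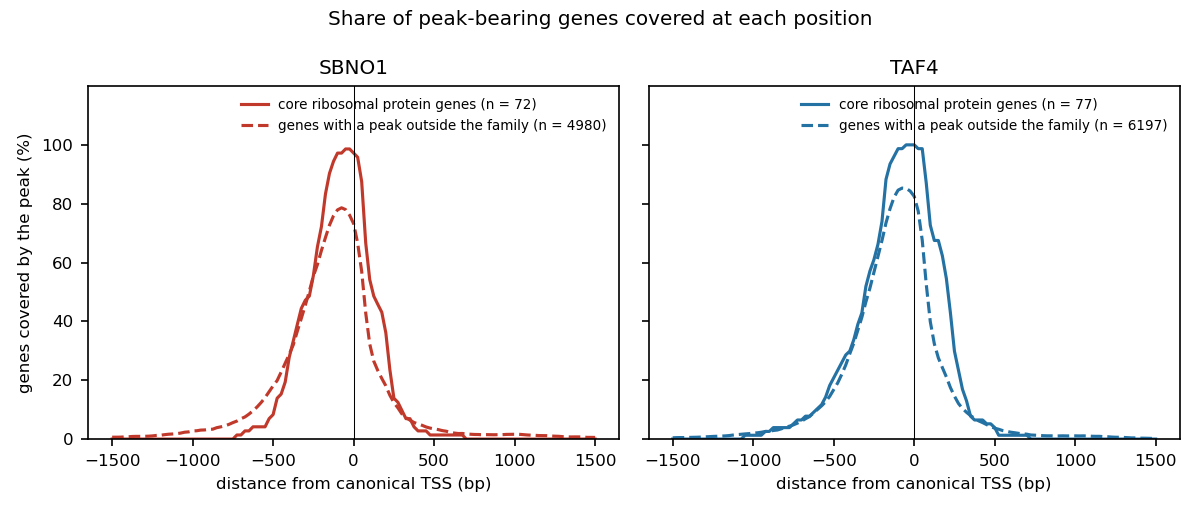
Share of genes with a peak (percent, y axis) whose main SBNO1 (left) or TAF4 (right) peak covered each position in 25 bp steps from the canonical TSS (x axis, bp, negative is upstream); solid lines are core ribosomal protein genes, dashed lines all other genes with a peak. The core lines reach 98.6% (SBNO1) and 100% (TAF4) at -50 bp, above 78.6% and 85.3% at -75 bp for other genes, and the TAF4 core line stays at or above 50% to 200 bp downstream, against 75 bp.

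By position, the SBNO1 coverage of core genes was at least 50% from -250 to 100 bp and had fallen to 8.33% at -500 bp, against 18.1% in other genes. TAF4 coverage was at least 50% from -300 to 200 bp and was 20.8% at -500 bp, against 16.8%. At 500 bp downstream it was 1.39% for SBNO1 and 3.9% for TAF4.

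Next, the SBNO1 and TAF4 peaks of the same gene were compared in the 72 core genes with both. Their main peaks overlapped in 71, and RPL32 was the exception. There, the SBNO1 peak (chr3:12841730-12841966) lay upstream of the main TAF4 peak (chr3:12841404-12841639, 236 bp), and a second TAF4 peak of 174 bp was centred at -262 bp. Counting all TAF4 peaks, every one of the 72 SBNO1 peaks overlapped at least 1 (lower bound 95%), against 85% of SBNO1 promoter peaks of other genes. In the other direction, 71 of 77 TAF4 peaks overlapped an SBNO1 peak (92.2%, 83.8 to 97.1), against 66.3%. Of SBNO1 peaks at mitochondrial ribosomal protein genes, 48 of 53 overlapped TAF4 (90.6%, 79.3 to 96.9). At proteasome subunit genes it was 26 of 26 (lower bound 86.8%). TAF4 peaks of these 2 lists overlapped SBNO1 in 82.1% (69.6 to 91.1) and 89.7% (72.6 to 97.8). These intervals overlapped those of the core genes. IgG peaks overlapped 3 of the 72 and 3 of the 77, a share of 4.17% and 3.9%, close to the 4.91% and 4% in other genes.

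The TAF4 peak was the wider of the pair in 49 of 72 core genes (68.1%), against 57.6% of other genes with both, and the SBNO1 peak in 23. The ratio of SBNO1 to TAF4 width had a median of 0.871, against 0.939. An SBNO1 peak lay entirely within the TAF4 peak in 33 genes and the reverse held in 6. The centres were a median of 46.5 bp apart, with SBNO1 upstream in 45 genes, and the largest offsets were 327 bp upstream at RPL32 and 393 bp downstream at RPL37. Both scores were at 1000 in 38 genes (52.8%), against 23.8% of other genes with both. Across the 72 genes, which share both libraries, the widths of the pair had a Spearman rho of 0.533, against 0.476 in other genes.

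**Figure D3:**
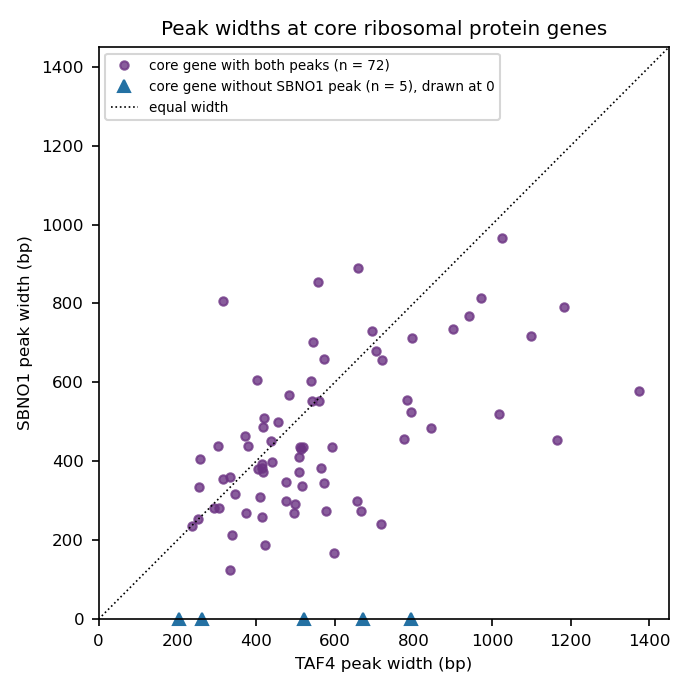
Width of the SBNO1 peak (y axis, bp) against that of the TAF4 peak (x axis, bp) at each core gene; circles are the 72 genes with both, triangles drawn at 0 the 5 genes with no SBNO1 peak, and the dotted line marks equal width. Of the circles, 49 lie below the line, where TAF4 was wider, and RPS19 (807 against 316 bp) stands out above it.

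Few genes had more than 1 peak of an antibody within reach. At RPL10, a second SBNO1 peak of 745 bp with the low score of 474 lay upstream (chrX:154397025-154397769), and the single TAF4 peak there overlapped both SBNO1 peaks. A second TAF4 peak was found at RPL26L1, RPL32, RPL36, RPS19 and RPS29. That of RPS19 (343 bp, centred at -507 bp) lay within the reach of its wide SBNO1 peak. At RPL36 and RPS29 the second TAF4 peak lay within 1 kb of an alternative annotated TSS, centred at -9610 and -12490 bp from the canonical TSS. Whether it belonged to these genes or to a neighbour was not tested. Within the gene body and over 1 kb from any TSS, SBNO1 peaks were found in 3 genes (RPL10, RPL38 and RPS3), TAF4 peaks in 3 (RPL10, RPL27A and RPS9) and IgG peaks in none.

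The 3 genes with an IgG peak, RPL27 and RPL37 among them, all had SBNO1 and TAF4 peaks that overlapped it. The IgG peak of RPL27 (chr17:42998031-42998474, score 625) was centred at -167 bp and that of RPL37 (chr5:40835181-40835422, score 983) at -79 bp. RPL37 was also among the leading SBNO1 peaks by score and width, so this region was recovered with control immunoglobulin as well. Without peaks that overlap an IgG peak, 69 core genes had SBNO1 and 74 had TAF4, against 24.6% and 30.8% of all genes.

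Some core promoters are shared with a neighbour transcribed in the opposite direction, and a peak there cannot be assigned to one of the pair. A head-to-head protein-coding neighbour was annotated for 13 core genes, of which 12 had SBNO1 and 13 TAF4. Of the 64 core genes without one, 60 had SBNO1 and 64 TAF4. The main SBNO1 peak covered a TSS of a gene outside the family in 13 core genes, for example ZWILCH at RPL4, MED22 at RPL7A, SPHK2 at RPL18 and NDUFA7 at RPS28. For TAF4 it was 14, with CLHC1 at RPS27A. When each peak was given only to the gene of its nearest TSS, 66 core genes had SBNO1 and 69 had TAF4, against 21.8% and 27.2% of all genes.

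Many ribosomal protein genes carry small nucleolar RNAs (snoRNAs), which guide rRNA modification, in their introns. Here, 28 core genes contained 60 annotated snoRNA genes, and 26 of the 28 had SBNO1 and all 28 had TAF4. This lay close to the 93.5% and 100% of all core genes, so the snoRNA hosts did not stand apart. Ribosomal protein genes have also left many processed pseudogenes, copies of the mRNA without the promoter. Of 1571 annotated RPL or RPS processed pseudogenes, 14 had an SBNO1 peak within 1 kb of the 5′ end (0.891%, 0.488 to 1.49), 9 a TAF4 peak (0.573%) and none an IgG peak (upper bound 0.235%). Only 6 and 3 of these lay over 1 kb from every protein-coding TSS. Peaks were thus rare at the copies, although how reads with several alignments were treated was not stated.

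Next, the sequence of the start site was read for every gene. A C at the canonical TSS followed by at least 4 pyrimidines was present in 58 of 77 core genes (75.3%, 64.2 to 84.4), in 2 of 9 paralogs and in 4.63% of all protein-coding genes. The share was 6.31% among all genes with an SBNO1 peak and 6.32% among those with a TAF4 peak. The tract had a median length of 8 bases (5 to 19). The annotated first base was C in 62 core genes, A in 10 and G in 5, and 4 of those with C had a shorter tract, RPL3 with 4 bases, RPS7 with 3, and RPL23 and RPS15 with 1. Within 5 bases of the TSS, such a tract was found in 85.7% of core genes and in 22% of all genes, so the exact share depends on the annotated position.

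SBNO1 peaks were present at core genes with and without the tract at the annotated TSS. They were found in 54 of 58 core genes with it (93.1%) and in 18 of 19 without (94.7%), and TAF4 peaks in all of both. Some of the 19 have a tract close by, since 66 of 77 core genes had one within 5 bases of the TSS. Whether the peaks went with a tract was therefore not tested by this split. Outside the family, 852 genes with a tract had SBNO1 in 31% and TAF4 in 39.7%, against 25.2% and 31.3% of 18748 genes without. Both shares of the 852 genes lay nearer to those of all genes than to those of the core genes. The genes without a tract include some with one close by. Within 5 bases of the TSS it was found in 22% of all genes, against 4.63% at the annotated TSS. This split therefore does not test whether peaks went with a tract either. Whether the mRNAs of the 852 genes are TOP mRNAs was not tested. Of the 16 other genes with TOP mRNAs listed below, 75% had SBNO1 and 93.8% had TAF4.

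**Figure D4:**
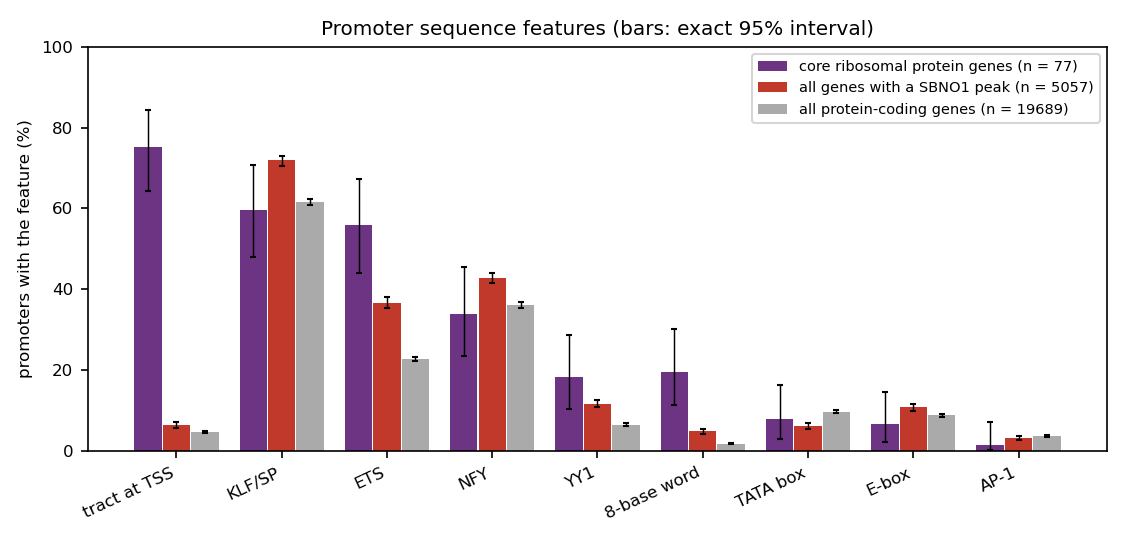
Share of promoters (percent, y axis) with a pyrimidine tract at the TSS or with each sequence word (x axis) in core ribosomal protein genes, all genes with an SBNO1 peak and all protein-coding genes; bars start at 0 and error bars are exact 95% intervals for counting error. The tract (75.3% against 4.63% of all genes), the ETS word (55.8% against 22.7%) and the 8-base word TCTCGCGA (19.5% against 1.74%) are higher in the core genes, whereas the KLF/SP and NFY words are not.

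Exact words were then searched on both strands of the 300 bases from 250 before to 50 after the canonical TSS, and a match is a description and not a binding site. GGGCGG, the core of KLF and SP sites, was found in 46 core genes (59.7%, 47.9 to 70.8). This compares with 61.6% of all genes and 71.9% of genes with an SBNO1 peak. CCAAT, read by NFY, was found in 26 (33.8%, 23.4 to 45.4), against 36.1% and 42.7%. CCGGAA, the core of ETS sites, was found in 43 (55.8%, 44.1 to 67.2), against 22.7% of all genes and 36.6% of genes with an SBNO1 peak. The E-box CACGTG was found in 5 (6.49%), against 8.75%. The TATA box word TATAAA was found on either strand in 6 (7.79%), against 9.65%, at a median of -30 bp. On the strand of the gene it was found only at RPLP0 (-27 bp), RPS2 (-30 bp) and RPS28 (-26 bp). The AP-1 words TGACTCA and TGAGTCA, which are one another's reverse complement, were found in 1 core gene, RPL24 (1.3%), against 3.56%.

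AAGATGG, part of the YY1 site, was found in 14 core genes (18.2%, 10.3 to 28.6), against 6.44% of all genes. Among genes with an SBNO1 peak it was 11.5%, which lies inside the interval of the core genes. In 7 of the 14 it held the start codon of the gene, and 13 of the 14 matches lay downstream of the TSS. The word overlaps the sequence around an ATG, and in all genes with a match it held the start codon in 29.4%. The promoter window of core genes had a median GC content of 59.3%, against 63.7% in all genes.

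TCTCGCGA was found in 15 core genes (19.5%, 11.3 to 30.1), against 1.74% of all genes and 4.73% of genes with an SBNO1 peak. The matches lay at a median of -52 bp (-238 to -24), all upstream of the TSS. All 15 genes had both SBNO1 and TAF4 peaks, as did 93.5% of all core genes. None of the 5 core genes with TAF4 alone had the word (upper bound 52.2%). These 5 are too few to tell whether the word went with the SBNO1 peak, which was not tested. For 7 of these genes, 32 bases around the word are shown on the strand of the gene (GRCh38), with the word in capitals in either direction.
RPS19 (chr19:41860175-41860206, plus strand): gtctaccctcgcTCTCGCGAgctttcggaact
RPS6 (chr9:19380269-19380300, minus strand): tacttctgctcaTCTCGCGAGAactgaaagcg
RPS15A (chr16:18790368-18790399, minus strand): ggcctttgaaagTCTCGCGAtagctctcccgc
RPL10A (chr6:35468344-35468375, plus strand): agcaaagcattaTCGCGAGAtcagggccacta
RPL26 (chr17:8383223-8383254, minus strand): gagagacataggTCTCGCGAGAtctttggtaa
RPL12 (chr9:127451442-127451473, minus strand): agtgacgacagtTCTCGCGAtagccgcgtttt
RPL27A (chr11:8682756-8682787, plus strand): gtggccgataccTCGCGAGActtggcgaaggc
RPL12 and RPS15A held the word on the strand of the gene only, and RPL10A and RPL27A on the opposite strand only. RPS6 and RPL26 held it on both strands in overlapping matches. RPS19 held, beside the match shown at -68 bp, an overlapping pair on both strands at -49 and -47 bp.

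To set a high-scoring against a low-scoring SBNO1 promoter, 200 bases before and 20 from the TSS on are given for RPL37 (SBNO1 score 1000) and RPS12 (score 523). Capitals mark the ETS, KLF and SP, and NFY words spelled out above, on either strand.
RPL37 (chr5:40835203-40835422, minus strand): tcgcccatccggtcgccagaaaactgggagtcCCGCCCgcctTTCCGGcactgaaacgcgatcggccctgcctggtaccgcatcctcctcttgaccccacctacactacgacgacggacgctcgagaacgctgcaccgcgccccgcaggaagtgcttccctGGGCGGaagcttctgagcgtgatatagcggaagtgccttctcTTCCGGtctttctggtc
RPS12 (chr6:132814369-132814588, plus strand): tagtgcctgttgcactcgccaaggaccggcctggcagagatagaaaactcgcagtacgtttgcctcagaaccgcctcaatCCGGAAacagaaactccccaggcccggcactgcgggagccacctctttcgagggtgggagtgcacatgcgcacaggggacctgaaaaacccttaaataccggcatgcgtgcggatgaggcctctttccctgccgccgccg
The RPL37 promoter held CCGGAA and GGGCGG words near both ends of the window, and that of RPS12 held a single CCGGAA word. Both starts opened with a pyrimidine tract, and neither held TCTCGCGA. An IgG peak with score 983 covered the whole RPL37 window shown, so control immunoglobulin recovered this region as well. These genes are examples only, and whether the words went with the SBNO1 score was not tested.

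The family was finally set beside gene lists with a related role, which share the 3 libraries with it. FAU and RACK1, which encode ribosomal proteins under other symbols, both had SBNO1 and TAF4 peaks. Of 16 other genes with TOP mRNAs, mainly translation factors, 12 had SBNO1 (75%, 47.6 to 92.7) and 15 had TAF4 (93.8%, 69.8 to 99.8). EEF1D, EEF2 and NAP1L1 had TAF4 alone and VIM, which encodes the filament protein vimentin, had neither, while EEF1A1 also had an IgG peak. Of 20 genes of ribosome biogenesis, 14 had SBNO1 (70%) and 16 had TAF4 (80%). FBL, the rRNA methyltransferase fibrillarin, POLR1B, UBTF and WDR12 had neither, and NOP56 and RRN3 had TAF4 alone.

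Of 78 mitochondrial ribosomal protein genes, 53 had SBNO1 (67.9%, 56.4 to 78.1), 57 had TAF4 (73.1%, 61.8 to 82.5), 4 had IgG and 48 had both SBNO1 and TAF4. Of 39 proteasome subunit genes, 26 had SBNO1 (66.7%, 49.8 to 80.9) and 29 had TAF4 (74.4%, 57.9 to 87). The intervals of the cytosolic core genes for SBNO1 (85.5 to 97.9) and TAF4 (95.3 to 100) did not overlap those of the mitochondrial ribosome or the proteasome, but these intervals hold no error between libraries. TAF4 peaks of the mitochondrial list had a median width of 364 bp (middle 50% 291 to 544), against 513 bp (405 to 672) in the cytosolic core genes. Their score was at 1000 in 66.7% (52.9 to 78.6), against 84.4% (74.4 to 91.7), so these intervals overlapped. The SBNO1 peaks had a median width of 417 bp, against 435 bp. They were at 1000 in 45.3% (31.6 to 59.6), against 56.9% (44.7 to 68.6).

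**Figure D5:**
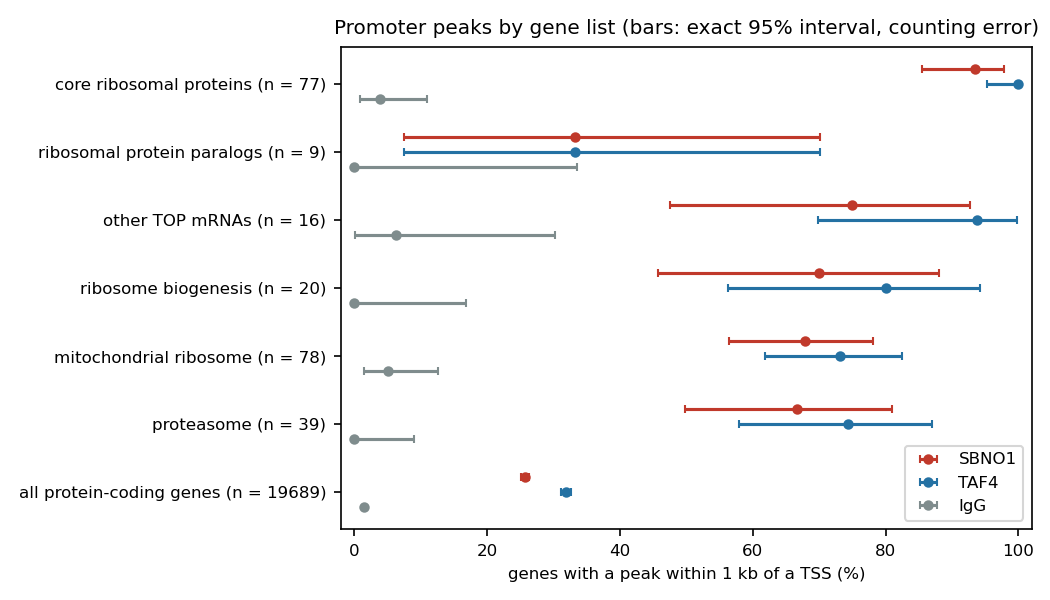
Share of genes with an SBNO1, TAF4 or IgG peak within 1 kb of a TSS (percent, x axis) for 7 gene lists (y axis, with the number of genes); points are shares and bars exact 95% intervals for counting error only. Core ribosomal protein genes stand highest for SBNO1 (93.5%) and TAF4 (100%), paralogs have 33.3% for both, and IgG lies at or below 6.25% in all lists.

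As a check of the labelled cell type, peaks at marker genes were counted, although peaks do not measure expression. Of 7 markers of biliary epithelium, 7 had TAF4 and 5 had SBNO1 (all but CDH1 and KRT7). The 4 hepatocyte and 3 leukocyte markers had no peak, and of 3 fibroblast markers only COL1A1 had peaks of SBNO1 and TAF4. The deposited lists held 16147 SBNO1, 12763 TAF4 and 1598 IgG peaks, of which 76, 85 and 3 lay at the ribosomal protein genes. The lists hold no read counts, so depth is unknown, and a gene without a peak may lie below what the depth could show.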

How the data were processed

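ChIP-seq peak lists of HuCCT1 cells for SBNO1, TAF4 and IgG were used, 1 library each. The labels describe a kit that cuts chromatin with an enzyme. The submitters' processing notes name Bowtie2 2.5.4, Genrich 0.6.1 and GRCh38.p14, whereas the study's methods name normR as peak caller. With these lists, 5057 genes had an SBNO1 and 6280 a TAF4 peak within 1 kb of a TSS. The study reported far fewer bound promoters for both antibodies within the same distance. Shares given here therefore describe these lists and not the study's published sets of bound genes. Peak threshold, multi-mapping reads, duplicates, excluded regions and the use of IgG as control were not given in the sources used here. The deposited score is a value of the authors, a whole number of at most 1000 whose scaling was not stated, and was used only to rank peaks within a list.

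Peak edges were compared with the TSS of protein-coding transcripts of GENCODE release 44 within 1 kb, and every gene in reach was counted. The main peak of a gene was that nearest to its canonical TSS, by edge and then by centre. Canonical TSS are those of the annotation and were not measured here. Shares have exact 95% Clopper-Pearson intervals (scipy 1.17.1) for counting error only. With 1 library per antibody, no test between libraries was made. Sequences were read from the GRCh38 reference with pysam 0.24.0. Scripts were written in Python 3.11.15 and tested on simulated data.

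The genes, lists and words were chosen with earlier results of these data known. Named were genes without an SBNO1 or a TAF4 peak, with an IgG peak, with more than 1 peak, the 5 highest-scoring and 5 widest peaks (ties by width), the 3 lowest SBNO1 scores, paralogs and read-through genes beside their parent, and 10 illustrations. Narrowest peaks, the lowest TAF4 scores, genes whose peak missed the TSS and the gene-body peaks were named after their values were seen. Alternatives changed the TSS set, the distance, the assignment of peaks, the score limit, the overlap and the definition of the tract. A few genes that this rule covers are counted but not reported by name here.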

Additional observations from a re-analysis of the deposited data

How the results depend on the processing

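Of 52 alternative values, 46 stayed within 1.5 times the main count or close to the main value. The others came from the score limit and the overlap. With only peaks at score 1000, an alternative chosen after seeing the data, 44 genes of the family had SBNO1 (77 with all peaks), 42 had both SBNO1 and TAF4 (77) and 39 core genes had both (72), while 9.14% of all genes had SBNO1. IgG peaks were left at 1 gene at or above the median score and at 0 at score 1000 (3 with all peaks). These score limits leave fewer peaks by construction. With a reciprocal overlap of 50%, 84.2% of the 76 SBNO1 peaks of the family overlapped a TAF4 peak (100% with 1 bp). With each peak given to its nearest TSS, 70 genes had SBNO1 and 74 had TAF4. No paired analysis was possible because the antibodies have 1 library each. The depth is unknown, the immunoprecipitates were pooled, and a missing peak does not show that a protein was absent.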
